A study of Mus musculus with 12 samples.

Results

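The expression of Wnt ligands, their receptors and the secreted proteins that modulate them was examined in the pancreas of β-catenin knockout embryos. The set held 48 genes of the 18193 that had a probe set of their own on the array. It comprised 19 Wnt ligands, 15 receptors and co-receptors, 10 genes for secreted inhibitors or their receptor Kremen1, 3 R-spondins, and Porcn, an enzyme that processes Wnt ligands. All 48 genes were measured, by 95 of 45037 probe sets. A probe set was taken as a member's when the platform annotation gave that gene as its only symbol.

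Whole pancreata were compared between 2 genotypes at 2 embryonic ages. The β-catenin KO embryos were Pdx1Cre/+ and β-catenin flox/flox, and 4 KO pancreata were profiled at E14.5 and 4 others at E16.5. The wildtype group had 2 pancreata at each age and is given in the labels only as wild type. All embryos came from timed matings of mice carrying the Pdx1-Cre transgene and a floxed β-catenin allele, and 1 pancreas was hybridised to each of 12 Affymetrix MOE430 2.0 arrays. Cre was driven by the Pdx1 promoter, which is active in the pancreatic epithelium. Deletion was therefore directed at epithelial cells and not at the mesenchyme, nerves or vessels that share the dissected organ. The study considered it likely that Cre expression was mosaic. RNA was amplified in repeated rounds before labelling. No statement says that the pancreata of a group came from separate litters, and p-values measure the spread between these pancreata.

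Wnt proteins are secreted lipid-modified ligands that bind Frizzled receptors together with the co-receptors Lrp5 or Lrp6 and thereby stabilise β-catenin, which then enters the nucleus and acts with Tcf and Lef factors. Some Wnt ligands instead signal through Ror or Ryk receptors without β-catenin. Sfrp proteins, Frzb and Wif1 bind the ligands outside the cell, Dkk1 and Dkk2 bind the co-receptors, and R-spondins keep Frizzled receptors at the cell surface. In the embryonic pancreas much of the Wnt ligand and inhibitor expression is known to lie in the mesenchyme that surrounds the epithelium, whereas the exocrine cells arise from the epithelium.

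The deposited values are ratios of signals to the average wildtype signal of that age. A ratio of 1 is therefore the wildtype mean, and the values hold neither transcript levels nor their change between the ages. For the same reason transcripts that are not expressed could not be recognised, and a ratio near 1 may come from a gene that the pancreas does not use. The targeted gene, Ctnnb1, was covered by 3 probe sets, whose KO means were 0.841 to 1.21 at E14.5 and 0.678 to 0.961 at E16.5, and none passed the adjusted limit at either age. On the probe set chosen by name the ratios were 0.907, 0.913, 0.956 and 0.845 in E14.5 KO, against 0.957 and 1.04 in wildtype, and 0.936, 0.862, 1.0 and 1.04 in E16.5 KO, against 0.887 and 1.11 in wildtype. Where these probe sets lie relative to the floxed exons is not given in the sources used here, so they check the genotype labels only in part. As a check of the tissue, the acinar enzyme gene Cela3b fell to 0.117 ± 0.0614 in E16.5 KO pancreata (SD, n = 4).

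Because the deleted gene acts with Tcf and Lef factors, the promoters of the members were searched for the letters these factors prefer. RefSeq promoter windows on GRCm38.p6, from 250 bases before to 50 bases after each start, were available for 31 of the 48 genes, in 34 windows. The Tcf and Lef core CTTTGA, or TCAAAG on the other strand, was found in 6 of these 34 windows (17.6%), against 16.0% of all 32851 windows. The 6 genes were Dkk1, Frzb, Fzd1, Ror1, Wnt11 and Wnt5b. The 250 bases before the start are shown for Wnt4, the gene with an adjusted p under 0.05 that had a window, and for Ror1, the receptor with the highest ratio at E16.5. They lie on the plus strand at chr4:137277385-137277634 (Wnt4) and chr4:100095541-100095790 (Ror1), and capitals mark the core.
Wnt4: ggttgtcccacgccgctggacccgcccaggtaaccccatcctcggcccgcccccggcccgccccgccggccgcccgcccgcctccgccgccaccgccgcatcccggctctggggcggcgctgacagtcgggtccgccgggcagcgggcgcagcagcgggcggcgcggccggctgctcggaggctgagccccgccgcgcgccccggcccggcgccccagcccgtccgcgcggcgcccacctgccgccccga
Ror1: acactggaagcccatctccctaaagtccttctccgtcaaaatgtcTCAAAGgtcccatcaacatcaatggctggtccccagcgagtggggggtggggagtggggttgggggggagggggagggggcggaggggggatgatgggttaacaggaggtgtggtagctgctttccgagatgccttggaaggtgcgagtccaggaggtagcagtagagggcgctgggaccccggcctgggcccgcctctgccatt
The Wnt4 stretch held no core, and in Ror1 the core began 205 bases before the start. A match of letters is a description of the sequence and not a binding site.

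At E16.5, 7 member probe sets of 5 genes rose in KO pancreata and none fell. The genes were the ligand Wnt4, the receptor Fzd2, the secreted inhibitor Sfrp1 (3 probe sets), the Dkk family member Dkk3, and the R-spondin Rspo2. Across all probe sets, 0.802% were called higher and 1.82% lower by limma at an adjusted p under 0.05. With an unadjusted p under 0.05, 23 member probe sets were higher and 5 lower (background 8.48% higher and 8.16% lower). All 4 KO values lay above both wildtype values in 27 of the 95 member probe sets (28.4%, against 14.5% of all probe sets) and below both in 5 (5.26%, against 11.1%). The typical member moved little, since the median log2 fold change was 0.07 with 1 probe set a gene, against 0.03 over all genes.

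The number of calls at E16.5 rested on single pancreata. It was 21 without KO_591D, 19 of them higher, and the share called among all probe sets was then 6.35%. It was 0 without KO_541J or without either of the wildtype pancreata WT_628G and WT_622A, where 0.897%, 1.54% and 1.03% of all probe sets were called. It was 1 without KO_541L and 3 without KO_591C, with 1.06% and 1.66% of all probe sets called. Pancreata of E14.5 enter the shared estimate of spread, and the number was 4 without KO_540C (2.1% of all probe sets called) and 2 without KO_615B (1.75%), WT_522B or WT_522C (1.45% each). No member was called when each age was fitted on its own 6 arrays. The direction of the 7 called probe sets was the same in each of these fits.

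**Figure D1:**
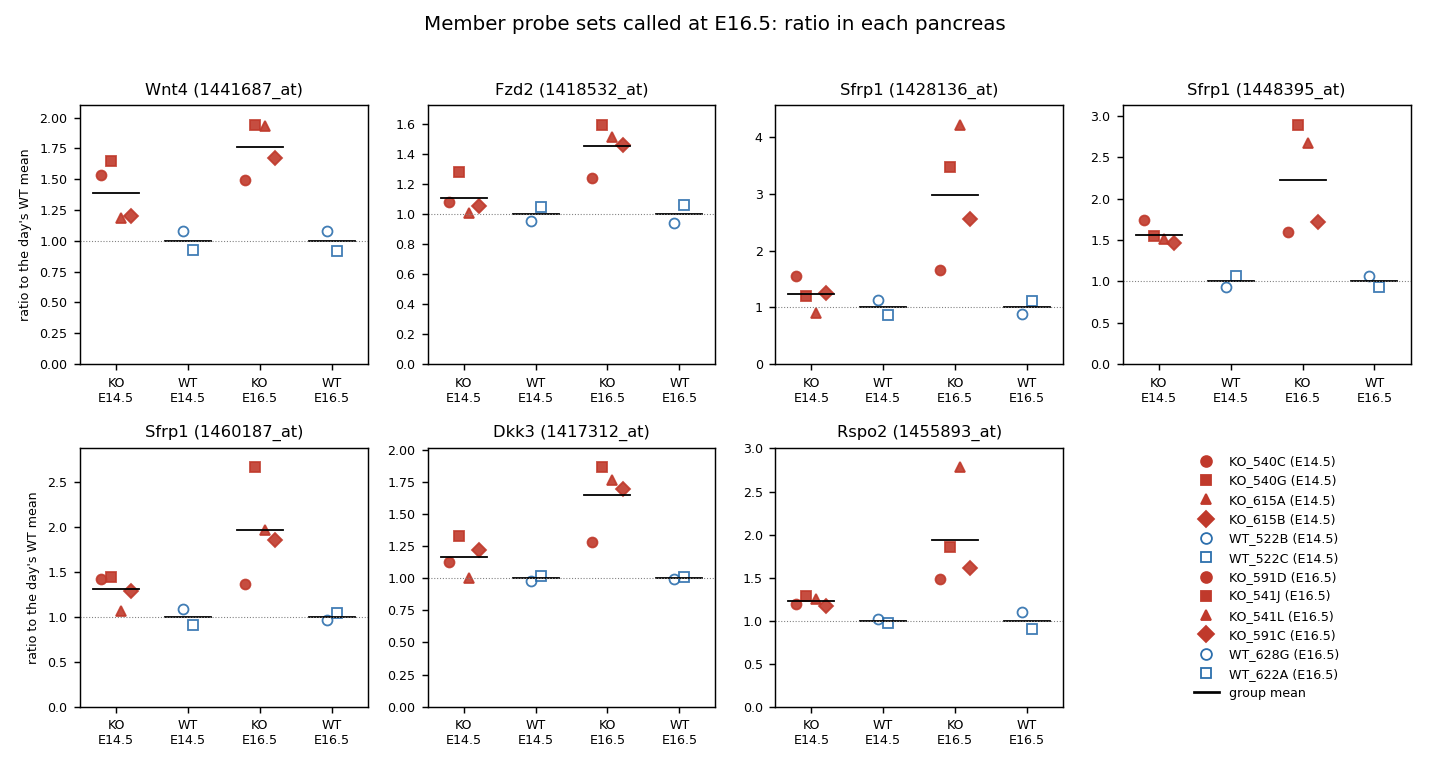
Ratio to the day's wildtype mean (linear axis from 0) in each pancreas for the 7 member probe sets called at E16.5, with KO left of wildtype (WT) at each age. Filled red symbols are KO and open blue symbols wildtype pancreata, and the black line is the group mean. All 4 E16.5 KO values lie above both wildtype values in every panel, and KO_591D is the lowest KO pancreas in each.

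Wnt4, a ligand best known from kidney and female reproductive tract development, was the ligand that rose. On probe set 1441687_at its ratios in E16.5 KO pancreata were 1.49, 1.94, 1.93 and 1.68 (mean 1.76 ± 0.218, SD, n = 4), against 1.08 and 0.921 in wildtype. The lowest KO value was well above the higher wildtype value. The log2 fold change was 0.81 ± 0.16 (SE) with a limma adjusted p of 0.0269. The other Wnt4 probe set, 1450782_at, had nearly the same KO mean, 1.76 ± 0.416, against wildtype values of 0.829 and 1.17, and its adjusted p of 0.0600 missed the limit. At E14.5 the KO ratios of 1441687_at were 1.53, 1.64, 1.19 and 1.20, against 1.08 and 0.923 in wildtype. All 4 E14.5 KO values were thus above wildtype as well, but the adjusted p was 0.629.

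The other ligands did not pass the adjusted limit at either age. Of the 32 ligand probe sets at E16.5, 27 had a KO value above wildtype on average (84.4%, against 56.1% of the whole array). At the unadjusted limit of 0.05, 4 were higher (12.5%, array 8.48%) and 1 was lower (3.1%, array 8.16%). Their median log2 fold change was 0.11, against 0.03 for the whole array. With 1 probe set a gene, 16 of the 19 ligands were above wildtype (84.2%, against 57.5% of all genes), with a median of 0.08. By pancreas, this ligand median was 0.18 in KO_591D, 0.05 in KO_541J and KO_541L, and 0.07 in KO_591C. The median over all genes was also highest in KO_591D, at 0.06. For 16 of the 19 ligand genes no probe set reached an unadjusted p under 0.05 at either age. Wnt5b, a ligand of β-catenin-independent signaling, had E16.5 KO ratios of 1.17, 4.43, 2.61 and 1.54 on probe set 1439373_x_at, against 1.09 and 0.907 in wildtype. Its KO mean of 2.44 ± 1.46 rested mainly on KO_541J, and the adjusted p was 0.191. Its second probe set, 1422602_a_at, varied less, with 1.33, 1.33, 1.17 and 1.09 in KO against 0.981 and 1.02 in wildtype (adjusted p = 0.276). Wnt5a, a close relative of Wnt5b, had a KO mean of 2.11 ± 1.38 at E16.5 on 1436791_at, but its KO values of 0.734 to 4.01 lay on both sides of the wildtype values of 1.01 and 0.994. The other 3 Wnt5a probe sets had E16.5 KO means of 1.08 to 1.26.

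Among ligands with low values, probe set 1441316_at of Wnt8b read 0.968, 0.697, 0.689 and 0.690 in E16.5 KO pancreata, against 0.996 and 1.0 in wildtype. KO_591D was close to wildtype and the other KO pancreata were alike, and the adjusted p was 0.217, or 0.0387 without KO_591D. The other 2 Wnt8b probe sets did not share this, with KO means of 1.06 and 1.07. Wnt16 was the lowest ligand at E16.5 on the probe set chosen by name, at 0.859 ± 0.107 in KO, and its KO and wildtype values overlapped. Wnt7a was the lowest at E14.5, at 0.894 ± 0.156 in KO, also with overlap.

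Fzd2, a Frizzled receptor, was the receptor that rose at E16.5. Its KO ratios on 1418532_at were 1.24, 1.60, 1.51 and 1.46 (1.45 ± 0.152, SD, n = 4), against 0.941 and 1.06 in wildtype. The log2 fold change was 0.53 ± 0.13 (SE) and the limma adjusted p 0.0490, just under the limit. On 1418534_at the KO ratios were 1.25, 2.62, 3.06 and 2.01, against 0.928 and 1.07 in wildtype. That probe set had a higher KO mean, 2.23 ± 0.787, and a wider spread, and its adjusted p was 0.0604, or 0.00259 without KO_591D. The third, 1418533_s_at, had a KO mean of 1.50 ± 0.369 and an adjusted p of 0.223. At E14.5 the KO means of the 3 Fzd2 probe sets were 1.07 to 1.13, and KO and wildtype values overlapped in each.

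Ror1, a receptor tyrosine kinase for Wnt5a-type ligands, had the highest receptor ratios at E16.5. On 1429313_at they were 1.42, 2.87, 4.58 and 2.56 in KO (2.86 ± 1.31, SD, n = 4), against 1.15 and 0.853 in wildtype, with an adjusted p of 0.0774, or 0.0102 without KO_591D. The groups did not overlap, but KO_541L was more than 3 times KO_591D. The other 2 Ror1 probe sets had KO means of 1.10 and 1.16. Fzd7 had a KO mean of 1.61 ± 0.384 on 1450044_at and 0.921 ± 0.0467 on 1450043_at, so its probe sets lay on opposite sides of wildtype.

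Several receptors had lower values in KO pancreata, and none of these passed the adjusted limit. Lrp6, the main Wnt co-receptor with Lrp5, read 0.745, 0.640, 0.924 and 0.800 on 1428500_at in E16.5 KO, against 0.971 and 1.03 in wildtype (adjusted p = 0.255). On its other probe set, 1451022_at, the values were 0.956, 0.849, 0.861 and 0.751 in KO, against 0.975 and 1.03 in wildtype (adjusted p = 0.290). On both probe sets all 4 KO pancreata lay below wildtype at E16.5. At E14.5 the second probe set lay above wildtype instead, at 1.10, 1.19, 1.05 and 1.16 in KO against 0.983 and 1.02 in wildtype. The change in the KO effect between the ages was -0.40 on the log2 scale, with an adjusted p of 0.348. Lrp5 did not show the same, with a KO mean of 0.982 ± 0.0794 at E16.5.

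Fzd5, a Frizzled receptor of endodermal epithelia, had the lowest mean of the receptors at E16.5. Probe set 1455604_at read 0.521, 0.461, 0.555 and 0.678 in KO, against 1.24 and 0.758 in wildtype. All KO values were below wildtype, but the wildtype pancreata differed from each other by more than the KO pancreata did, and the adjusted p was 0.131. The other Fzd5 probe set, 1422937_at, was near wildtype at 0.987 ± 0.128 in KO. At E14.5 the low receptors were others. Ryk, an atypical receptor for Wnt ligands, read 0.919, 0.742, 0.797 and 0.729 in E14.5 KO on 1447400_at, against 0.955 and 1.04 in wildtype (adjusted p = 0.695). The gene table places Ryk on the chromosome of Ctnnb1, the floxed gene, and it was the 1 member there. Fzd3 read 0.759, 0.782, 0.860 and 0.849 in E14.5 KO on 1438101_at, against 0.880 and 1.12 in wildtype, and 5 of its 6 probe sets had KO means of 0.615 to 0.812. On the other Ryk probe sets, 1451789_a_at and 1426388_s_at, the E14.5 KO means were 0.813 and 0.979, the latter with overlap. By E16.5 the KO mean of Ryk was 1.05 on 1447400_at, 1.19 on 1451789_a_at and 1.21 on 1426388_s_at, with overlap in each. The 6 Fzd3 probe sets then had KO means of 0.655 to 1.11, 4 of them below wildtype, and KO and wildtype values overlapped in each. The lowest, 1450135_at, read 0.864, 0.546, 0.385 and 0.824 in E16.5 KO, against 0.763 and 1.24 in wildtype, and its KO mean was 0.655 ± 0.229, close to the 0.615 ± 0.212 of E14.5 KO. Fzd6 was the lowest receptor at E14.5 on the probe set chosen by name, at 0.751 ± 0.188 in KO, and Fzd4 the highest, at 1.56 ± 0.327, and in both KO and wildtype overlapped.

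**Figure D2:**
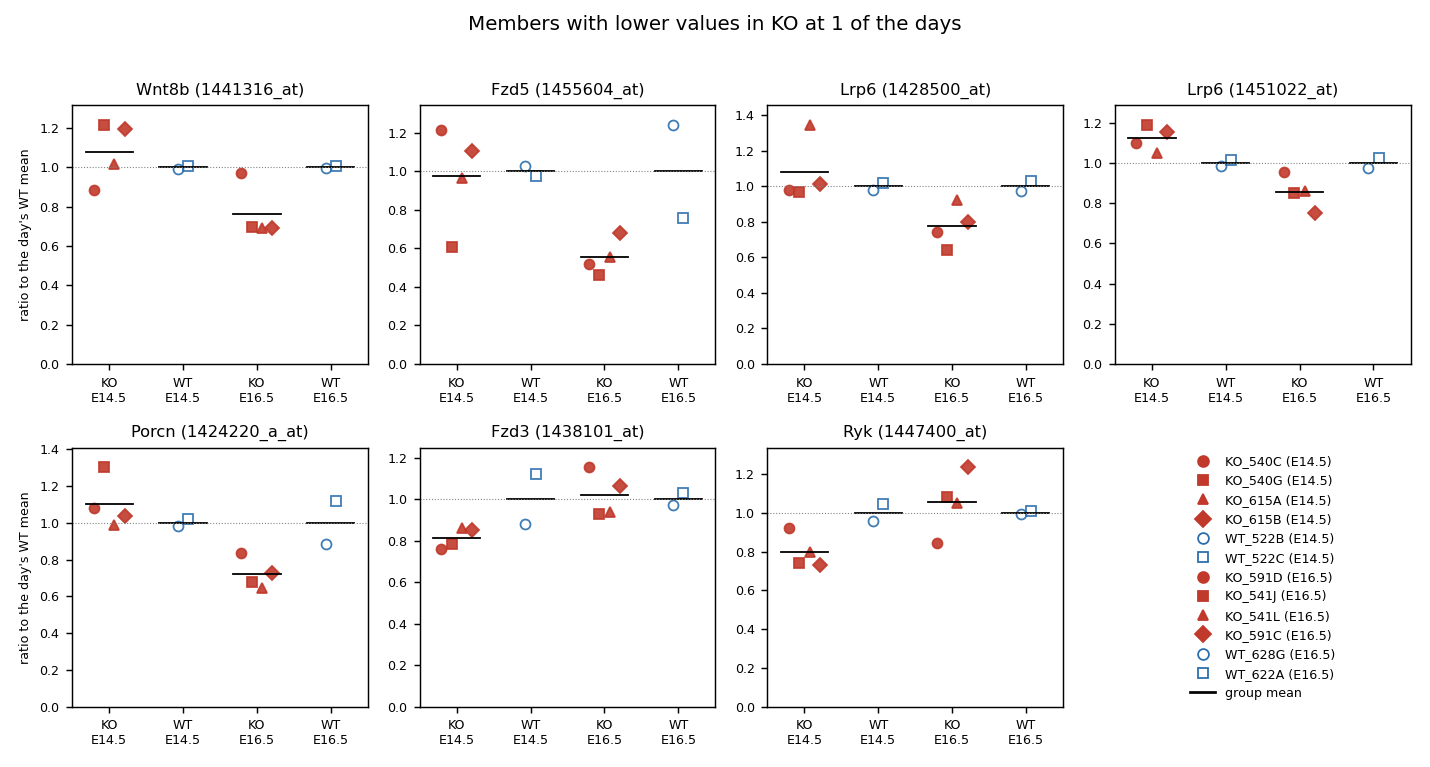
Ratio to the day's wildtype mean (linear axis from 0) in each pancreas for 7 member probe sets with lower KO values at 1 of the ages. Symbols as for the called members. Lrp6, Porcn, Fzd5 and Wnt8b have all 4 KO values below both wildtype values at E16.5, and Ryk and Fzd3 at E14.5, and none of them passed the adjusted limit.

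Secreted inhibitors held 4 of the 7 calls at E16.5. Of the 20 probe sets of this group, which includes Kremen1, 9 were higher at an unadjusted p under 0.05 (45.0%, against 8.48% of all probe sets). None was lower (against 8.16%), and the median log2 fold change was 0.32. The 9 were of Sfrp1, Sfrp2, Dkk2 and Dkk3, so probe sets of 1 gene were counted repeatedly. With 1 probe set a gene, 4 of 10 genes were higher (40.0%, against 9.58% of all genes), and the median was 0.28. Sfrp1, which binds Wnt ligands through a Frizzled-like domain, rose on 3 of its 5 probe sets. On 1428136_at its ratios were 1.65, 3.47, 4.22 and 2.56 in E16.5 KO, against 0.882 and 1.12 in wildtype. The KO mean was 2.98 ± 1.11 (SD, n = 4), the log2 fold change 1.50 ± 0.32 (SE) and the limma adjusted p 0.0332. On 1448395_at the ratios were 1.60, 2.90, 2.68 and 1.71 in KO, against 1.07 and 0.932 in wildtype, with an adjusted p of 0.0243, the lowest of any member. On 1460187_at they were 1.37, 2.66, 1.96 and 1.85 in KO, against 0.962 and 1.04 in wildtype (adjusted p = 0.0447). The other 2 Sfrp1 probe sets had KO means of 1.58 ± 0.306 and 1.50 ± 0.343 and adjusted p of 0.0977 and 0.150. All 5 thus had E16.5 KO values above both wildtype values, and they differed in size.

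Sfrp1 already had values above wildtype at E14.5 on 1448395_at, where KO ratios were 1.74, 1.55, 1.51 and 1.47, against 0.937 and 1.06 in wildtype. These 4 KO values lay close together and far from wildtype, yet the adjusted p was 0.607, the lowest of any member at that age. The same E14.5 non-overlap was seen on 1438620_x_at, with a KO mean of 1.43 ± 0.190. On the remaining 3 Sfrp1 probe sets KO and wildtype values overlapped at E14.5.

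Dkk3, a divergent Dkk family member that is not known to bind the co-receptors as Dkk1 does, rose on 1 of its 2 probe sets. On 1417312_at the E16.5 ratios were 1.28, 1.86, 1.76 and 1.69 in KO (1.65 ± 0.256, SD, n = 4), against 0.992 and 1.01 in wildtype, with a log2 fold change of 0.71 ± 0.15 (SE) and an adjusted p of 0.0333. On 1448669_at the KO mean was similar, 1.68 ± 0.375, and the adjusted p was 0.0615. At E14.5 the KO ratios of 1448669_at were 1.28, 1.50, 1.24 and 1.61, all above the wildtype values of 1.08 and 0.924.

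Sfrp2 and Dkk2 had the largest KO ratios among the inhibitors at E14.5, with 1 probe set each. Sfrp2, a relative of Sfrp1, read 3.10, 2.55, 1.81 and 2.28 in E14.5 KO, against 1.04 and 0.963 in wildtype (2.44 ± 0.541, SD, n = 4, adjusted p = 0.641). At E16.5 it read 1.06, 4.42, 3.34 and 1.78 in KO, against 0.722 and 1.28 in wildtype. KO_591D was within the wildtype range, so the groups overlapped at the later age. Dkk2, which binds Lrp5 and Lrp6, read 3.05, 1.65, 1.66 and 3.19 in E14.5 KO, against 1.13 and 0.872 in wildtype. At E16.5 it read 1.09, 3.08, 5.21 and 2.51 in KO, against 1.08 and 0.924 in wildtype, where KO_591D lay just above wildtype. The adjusted p at E16.5 was 0.170, and 0.0161 without KO_591D. Frzb, a ligand-binding inhibitor related to the Sfrp proteins, read 1.41, 1.43, 1.25 and 1.29 on 1416658_at in E14.5 KO, against 1.01 and 0.993 in wildtype, with no overlap (adjusted p = 0.782). At E16.5 it read 0.922, 1.28, 1.93 and 1.71 in KO, against 0.913 and 1.09 in wildtype, where KO_591D lay within the wildtype range (adjusted p = 0.308). Its other probe set, 1448424_at, had a KO mean of 0.917 in the younger pancreata and of 1.12 in the older ones. The probe sets of Dkk1, Wif1, Sfrp4, Sfrp5 and Kremen1 had KO means of 0.907 to 1.11 at the 2 ages, and their KO and wildtype values overlapped. Dkk1 was the lowest of the group at E14.5 on the probe set chosen by name, at 0.967 ± 0.138 in KO, and Wif1 at E16.5, at 0.980 ± 0.0612 in KO.

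Of the R-spondins, Rspo2 rose at E16.5 and the other 2 genes had high values that missed the limit. Rspo2 on 1455893_at read 1.48, 1.85, 2.78 and 1.61 in KO, against 1.10 and 0.900 in wildtype, and its log2 fold change was 0.91 ± 0.20 (SE) with an adjusted p of 0.0386. Its other probe set, 1430104_at, was at the wildtype mean, at 1.0 ± 0.0769 in KO. Rspo3 on 1455607_at had the highest mean ratio of any member at E16.5. Its values were 1.22, 5.40, 8.61 and 4.21 in KO (4.86 ± 3.06, SD, n = 4), against 0.927 and 1.07 in wildtype, with an adjusted p of 0.0993, or 0.00298 without KO_591D. At E14.5 it read 2.93, 1.82, 1.50 and 2.32 in KO, against 1.25 and 0.753 in wildtype, again with no overlap. The other Rspo3 probe set, 1443187_at, had a KO mean of 1.16 ± 0.157 at E16.5. Rspo1 read 1.15, 1.71, 1.97 and 1.45 in E16.5 KO, against 0.977 and 1.02 in wildtype (adjusted p = 0.102), whereas at E14.5 KO and wildtype overlapped, with a KO mean of 0.987.

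Porcn, the acyltransferase that adds the lipid that Wnt ligands need for secretion, went the other way at E16.5. Its 1 probe set read 0.838, 0.679, 0.644 and 0.729 in KO (0.722 ± 0.0845, SD, n = 4), against 0.882 and 1.12 in wildtype, with a log2 fold change of -0.47 ± 0.14 (SE). The KO values were all below wildtype and the adjusted p was 0.114, or 0.0456 without KO_591D. At E14.5 the KO mean was 1.10 ± 0.139. The change of the KO effect between the ages, -0.60 on the log2 scale, had an adjusted p of 0.299, the lowest of any member in that comparison.

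**Figure D3:**
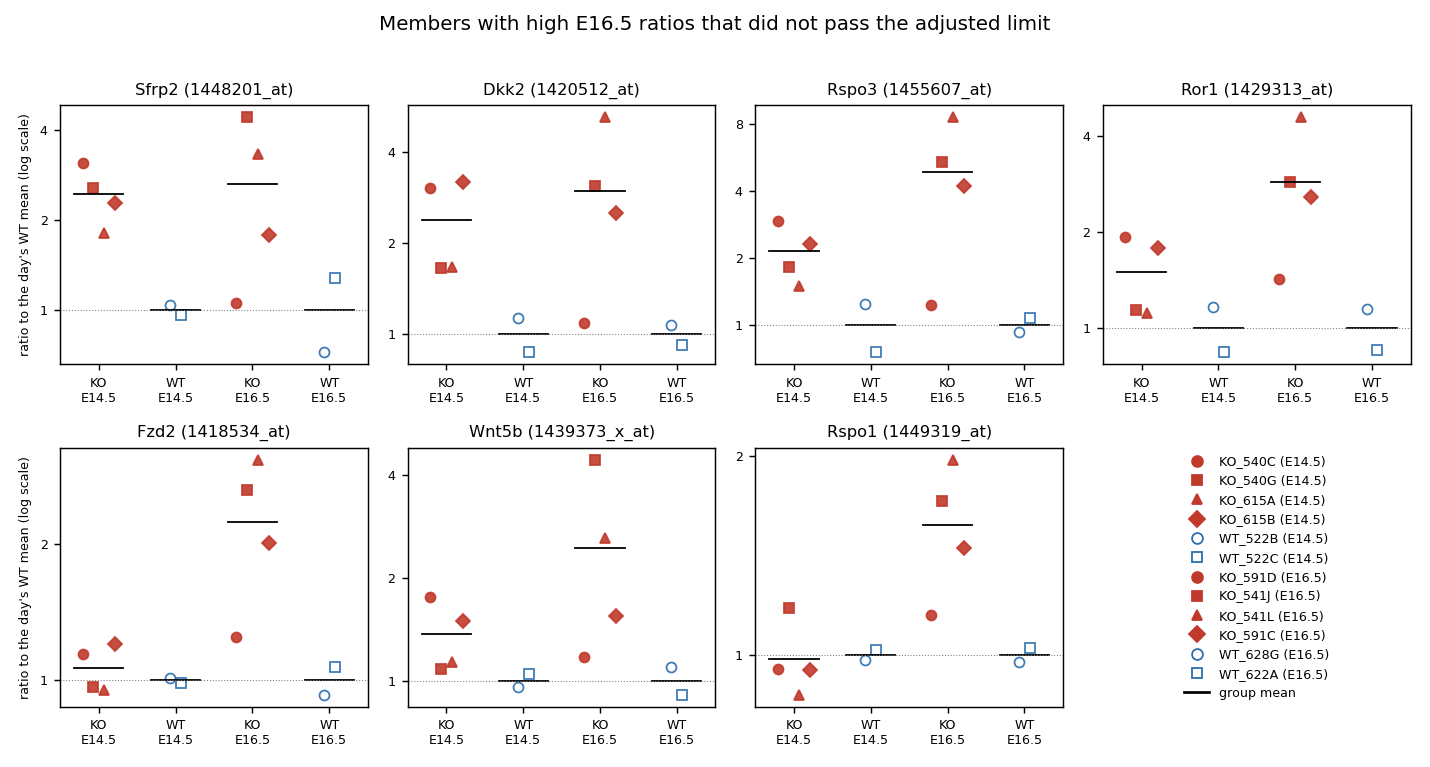
Ratio to the day's wildtype mean (log axis) in each pancreas for 7 member probe sets with high E16.5 KO ratios whose limma adjusted p missed the limit. Symbols as for the called members. KO_591D is the lowest E16.5 KO pancreas in each panel, and Rspo3 reaches 8.61 in KO_541L.

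The spread among E16.5 KO pancreata followed 1 order in most members with high values. In the 23 member probe sets that were higher at an unadjusted p under 0.05, KO_591D was the lowest KO pancreas in 20 (87.0%), and KO_541J or KO_541L was the highest in 12 and 10. The same order was present in the array as a whole, where KO_591D was the lowest in 60.4% of the 3821 probe sets that met this limit. The order did not hold over all 48 members with 1 probe set a gene. There KO_591D had the highest median log2 ratio, 0.15, against 0.07 in KO_541J, 0.05 in KO_541L and 0.06 in KO_591C. The alternative fit with array weights gave KO_591D the lowest weight of the 4, 0.42, against 1.36 to 1.67. KO_541J and KO_541L share a number in their names, as do KO_591C and KO_591D, so the 4 pancreata form 2 pairs. KO_591D was nearest wildtype wherever a p-value without it is given, so leaving it out enlarged the difference. That fit was 1 of 21 alternatives. The probe sets concerned stayed uncalled in 19 (Rspo3, Ror1, Fzd2), 20 (Dkk2, Wnt8b) and 18 (Porcn) of the 21.

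At E14.5 no member passed the adjusted limit, and 5 of the 45037 probe sets on the array did so (0.0111%). With an unadjusted p under 0.05, 7 member probe sets were higher and 4 lower by limma, against a background of 2.34% higher and 4.52% lower. The higher ones were of Wnt4, Fzd4, Sfrp1, Sfrp2, Dkk2 and Dkk3, and the lower ones were of Fzd3, Fzd6 and Ryk. All 4 KO values lay above both wildtype values in 14 member probe sets (14.7%, against 8.17% of all) and below both in 5 (5.26%, against 8.06% of all). The median log2 fold change was 0.07 with 1 probe set a gene, against 0.01 over all genes. It rested on KO_540G, where the members' median log2 ratio was 0.27. In KO_540C, KO_615A and KO_615B it was -0.02, 0.01 and 0.02, against -0.02 and 0.02 in wildtype. Over all genes KO_540G also had the highest median of the E14.5 KO pancreata, 0.07.

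No member passed the adjusted limit for the difference between the KO effects at E16.5 and E14.5, against 0.349% of the whole array. With an unadjusted p under 0.05, 9 member probe sets had a more positive effect at E16.5 and 3 a more negative one by limma, against a background of 5.32% and 5.04%. The largest of the positive differences was that of Sfrp1 on 1428136_at, 1.22 on the log2 scale (adjusted p = 0.349), followed by Fzd2 on 1418534_at with 1.0. A call at E16.5 without a call at E14.5 therefore does not show that the effect of the deletion changed with age for these genes.

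**Figure D4:**
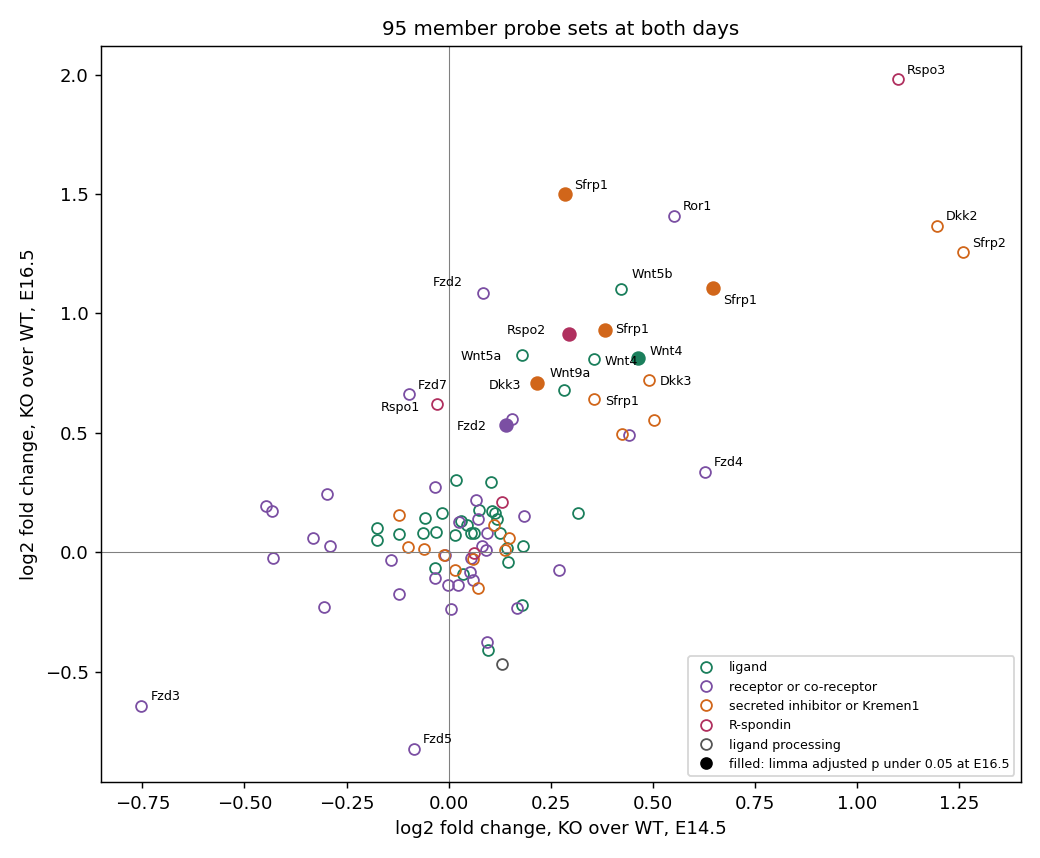
Log2 fold change of KO over wildtype at E14.5 (horizontal axis) and at E16.5 (vertical axis) for the 95 member probe sets, coloured by role. Filled points have a limma adjusted p under 0.05 at E16.5. Rspo3, Dkk2, Sfrp2, Ror1 and Sfrp1 lie farthest to the upper right, and Fzd5 and Fzd3 are the lowest at E16.5.

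Probe sets of 1 gene did not always move together. Of the 30 members with several probe sets, 15 had all of them above wildtype in the E16.5 KO mean, 5 had all below and 10 were mixed. At E14.5 the numbers were 16, 2 and 12. For 27 members, with 44 probe sets, no probe set reached an unadjusted p under 0.05 at either age, and their log2 fold changes ran from -0.22 to 0.83. These were 16 of 19 ligands, 5 of 15 receptors and 6 of 10 inhibitors, and none of the R-spondins.

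Other genes of the pathway were read on 1 probe set each. Of 18 measured extracellular modulators and surface regulators outside the set, 1 fell and 0 rose at E16.5 (5.56%, against 3.03% of all genes called in either direction). This was Sostdc1, a secreted antagonist of Wnt and BMP signaling, at 0.317 ± 0.0433 in KO (SD, n = 4, adjusted p = 0.000518), against 1.04 ± 0.149 in E14.5 KO. Its difference between the ages passed the limit (adjusted p = 0.0135), as did that of 0.374% of all genes. Wls, which carries Wnt ligands to the cell surface, had a KO mean of 1.60 ± 0.442 and an adjusted p of 0.191. Cthrc1, a secreted Wnt cofactor, had a KO mean of 2.57 ± 0.918 and missed the limit at 0.0522. Its E14.5 KO mean was 2.09 ± 0.328 (adjusted p = 0.560 in limma). The R-spondin receptor Lgr4 and the ubiquitin ligases Rnf43 and Znrf3, which remove Frizzled receptors, had E16.5 KO means of 0.573, 0.661 and 0.697. At E14.5 their KO means were already 0.719, 0.613 and 0.702, and none passed at either age.

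Of 31 measured genes of signal transduction inside the cell, 1 rose and 0 fell at E16.5, a share of 3.23% that was near the 3.03% of all genes. Dact1, which binds Dishevelled proteins, rose to 2.43 ± 0.767 in KO (adjusted p = 0.0252). Axin2, a widely used target gene and inhibitor of the pathway, had a KO mean of 1.11 ± 0.110 and an adjusted p of 0.660. Of 10 genes of planar cell polarity, 2 fell and 0 rose (20.0%, against the same 3.03%). These were the large cadherins Celsr1, at 0.381 ± 0.0749 in KO (adjusted p = 0.0235), and Celsr2, at 0.742 ± 0.0143 in KO (adjusted p = 0.0178). At E14.5 none of these 3 lists held a call, against 0.0165% of all genes. The medians at E16.5 were 0.03, 0.12 and 0.01 on the log2 scale, against 0.03 over all genes.

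Some markers of other cell types also rose at E16.5, and their part in these results was not tested. In whole pancreata, a larger share of cells of a type and more RNA per cell cannot be told apart. Of 18 mesenchyme markers measured, 4 rose and 0 fell at E16.5 (22.2%, against 3.03% of all genes called in either direction). Among the 4 were Lum, at 2.88 ± 0.700 in KO, and Col5a1, at 2.24 ± 0.623 in KO. The list's mean ratio ran from 1.20 to 1.92 in E16.5 KO pancreata, against 0.970 to 1.03 in wildtype, and from 1.17 to 1.46 in E14.5 KO pancreata, against 0.974 to 1.03 in wildtype. The general mesenchyme genes Pdgfra and Pdgfrb stayed near wildtype at E16.5, at 1.09 ± 0.0726 and 0.983 ± 0.170 in KO. The list's median log2 ratio in E16.5 KO pancreata was 0.24 in KO_591D, 0.63 in KO_541J, 0.91 in KO_541L and 0.13 in KO_591C, and that of the 7 called member probe sets was 0.57, 0.96, 0.97 and 0.76 in the same order. KO_591D was the lowest for the called members. For the mesenchyme markers KO_591C was the lowest by the median and KO_591D by the mean ratio, 1.20 against 1.38 in KO_591C, and KO_591D was also the lowest KO pancreas for each of the 4 markers that rose.

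At E16.5 exocrine markers moved the opposite way. Of 9 acinar markers measured, 4 fell and 0 rose at E16.5 (44.4%, against 3.03% of all genes called in either direction). Their mean ratio ran from 0.244 to 0.544 in KO, against 0.996 to 1.0 in wildtype. The acinar median was -0.98 in KO_591D, -2.20 in KO_541J, -3.46 in KO_541L and -1.13 in KO_591C on the log2 scale. The 2 KO pancreata with the lowest acinar medians, KO_541J and KO_541L, were also those with the highest values of the called members. These 2 share a number in their names, as do KO_591C and KO_591D, so the comparison is between 2 pairs. What the number stands for is not given in the labels. Of 7 markers of the pancreatic epithelium none was called at E16.5, and their mean ratio ran from 0.447 to 0.800 in KO, against 0.763 to 1.24 in wildtype. Of the peripheral neuron and glia markers 2 of 8 rose and of the leukocyte markers 1 of 6, while 0 of 5 mesothelium, 0 of 6 smooth muscle and pericyte and 0 of 7 endothelium markers were called. Of the duct markers 1 of 5 fell and of the gut epithelium markers 1 of 4, and none of 8 endocrine, 5 liver and 2 spleen mesenchyme markers was called. At E14.5 no gene of any of these lists was called, against 0.0165% of all genes.

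**Figure D5:**
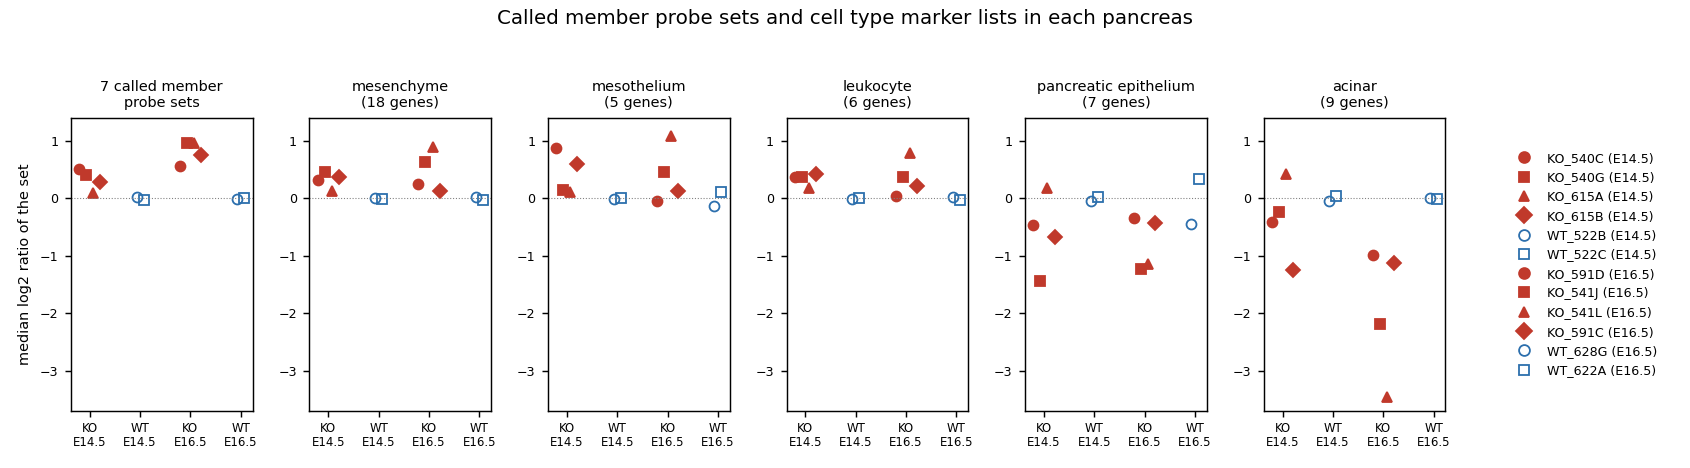
Median log2 ratio in each pancreas, 0 being the wildtype mean of the day, for the 7 called member probe sets and for lists of cell type markers with 1 probe set a gene. Filled red symbols are KO and open blue symbols wildtype pancreata, with KO left of wildtype at each age. At E16.5 KO_541L has the highest mesenchyme median, 0.91, and the lowest acinar median, -3.46.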

How the data were processed

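Pancreata of β-catenin KO (4 per age) and wildtype embryos (2 per age) were hybridised to Affymetrix MOE430 2.0 arrays, 1 pancreas each. The authors normalised the arrays by RMA in GeneSpring and deposited, for each probe set, a linear ratio to the mean of the same day's wildtype arrays, so the 2 wildtype values of a day always sum to 2 and a dim probe set looks like any other. Depth does not apply to arrays, and the number of arrays limits the precision. Genome build and annotation of the signal values are not given in the sources used here. Gene symbols came from the platform annotation: 34945 probe sets had 1 symbol, 932 several and 9160 none, and 64 control probe sets were left out. The series text also gives the earlier age as E14.6, and the array names were followed.

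Ratios were taken to log2, and KO was compared with wildtype of the same day in 1 limma fit (version 3.58.1, R 4.3.3) of 4 groups over 12 arrays, with empirical Bayes variances. P-values were adjusted by Benjamini-Hochberg over 45037 probe sets, and a call is an adjusted p under 0.05. The fit was run on simulated data with independent errors of equal spread in all groups, as a check of the calculation only. The simulated data lacked the tie between the wildtype values of a day and the pairs of KO pancreata. Where lists are read with 1 probe set a gene, it was chosen by its name (plain _at names before the others, lowest number). Values were given for members with a call, for those with an unadjusted p under 0.05 and no overlap between groups at an age, and for the highest and lowest of each role. Some other members are given for comparison and were chosen after their values were seen. Promoter windows were those of RefSeq. Members and lists were chosen with earlier results of these data known. Alternatives were other variance models, scalings and limits, array weights, the methods' t-test and leaving out each pancreas.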

Additional observations from a re-analysis of the deposited data

Results flagged for a closer look

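In groups of 4 KO pancreata, 5 of 72 groups of named probe sets held a pancreas far from the other 3 (Dixon's criterion), against 3.6 that chance would give. For Wnt8b on 1441316_at, KO_591D read 0.968 at E16.5 and the other KO pancreata 0.689 to 0.697. For Wnt16 on 1422941_at, KO_591D read 1.02 at E16.5 and the others 0.795 to 0.824. For Lrp6 on 1428500_at, KO_615A read 1.35 at E14.5 and the others 0.968 to 1.02. For Sfrp1 on 1416594_at, KO_615A read 0.998 at E14.5 and the others 1.38 to 1.39. For Rspo3 on 1443187_at, KO_540G read 1.47 at E14.5 and the others 0.967 to 1.01.

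For Lrp6 on 1451022_at every KO pancreas lay above wildtype at E14.5 and below it at E16.5. The difference between the KO effects was -0.40 on the log2 scale, with an adjusted p of 0.348 in limma.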

How the results depend on the processing

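The E16.5 count of 7 called member probe sets depended on the fit. It was 0 with trended and robust variances, with each day on its own 6 arrays, with quantile normalisation and with the methods' t-test after Benjamini-Hochberg, 3 with centring on array medians, 15 with array weights, 13 at an adjusted p under 0.10, 28 at an unadjusted p under 0.05 and 12 with the unadjusted methods' t-test. It stayed 7 with the number in the array name as a random block (correlation -0.09) and without _x_at and _s_at probe sets. Leaving out 1 pancreas gave 0 to 21. At E14.5 the count of 0 became 11 at an unadjusted p in limma and 10 with the unadjusted methods' t-test. For the difference between ages it became 12 at an unadjusted p and 0 to 1 without 1 pancreas. The members' median at E16.5 was 0.12 with the probe set of highest mean for each gene. No probe set with a call, or with an unadjusted p under 0.05 and no overlap between groups, changed direction at that age under any alternative. The direction was not checked for members named for other reasons, such as the highest or lowest of a role. The median log2 fold change of all probe sets lay between 0.01 and 0.03 on the deposited scale, after quantile normalisation and after centring. The causes of these changes were not tested. Without 1 wildtype pancreas, the lone one left is assumed to vary like the other groups. No paired analysis was possible because KO and wildtype pancreata of a day share no number in their names, so what the number stands for and the genotype cannot be told apart. Array signals over background cannot be read from ratios.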
